A study of Mus musculus with 6 samples.

Results

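The genes described here encode the basement membrane: collagens IV, XV and XVIII, the laminin chains, the nidogens, the proteoglycans perlecan and agrin, the receptor dystroglycan, and proteins attached to the sheet. They were taken by name from a list of 32 mouse symbols, and all 32 were found among the 56748 genes of the count tables. The RNA came from the tibia of female mice aged 12 weeks, with 3 libraries of Col1a1+/- mice, heterozygous at the gene for the alpha 1 chain of type I collagen, and 3 of wild-type (WT) mice. No strain, treatment or second allele is named for either group, and a treatment against TGF-beta appears in the title of the series only. The marrow was flushed out before the bone was frozen and disrupted, so a library holds the RNA of every cell left in and on the bone, and fewer cells of a type cannot be told apart from less RNA per cell. The labels do not say whether libraries of a genotype came from separate animals, and the p-values below measure the spread between these libraries.

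A basement membrane is a thin sheet of extracellular matrix on which endothelium and epithelium rest and which wraps each muscle fibre, adipocyte and Schwann cell. Laminins, trimers of an alpha, a beta and a gamma chain, polymerize at the cell surface on integrins and dystroglycan. A network of collagen IV forms beside them, and nidogens, perlecan and agrin tie both together. In bone the sheet surrounds vessels, nerves and fat cells, while osteoblasts and osteocytes adjoin a matrix of type I collagen without one.

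Libraries held 26.8 to 32.4 M reads, and the 32 genes took 0.213% to 0.329% of them. Levels are in CPM, reads of a gene per M reads of the library, scaled between libraries with edgeR's TMM factors, and levels of different genes are compared as CPM per kb of exon. Col1a1 itself stood at 61149, 52880 and 59598 CPM in Col1a1+/- against 36810, 61347 and 54799 CPM in wild-type libraries, with overlapping genotypes (log2 fold change 0.18, adjusted p = 0.78 by edgeR). Its level thus does not tell the genotypes apart, and the groups rest on the labels alone. Bone markers were present: all 7 osteoblast markers and 8 of 9 osteocyte markers passed the filter on low counts, with Fgf23 as the exception. The libraries differed in other tissue. The 12 skeletal muscle markers, none at 0 in any library, took 1.41% to 2.73% of counts in Col1a1+/- and 4.35% to 5.41% in wild type. The 8 neutrophil markers took 0.553% in wild-type replicate 1 and 0.0929% to 0.153% in the other 5 libraries.

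Of the 32 genes 31 passed the filter and were tested, and 4 passed an adjusted p of 0.05 between genotypes by edgeR's quasi-likelihood test over 18514 genes, of which 4.34% passed. Smoc2 was higher in Col1a1+/-, where 1.43% of all tested genes were called higher. Lama2, Frem1 and Frem2 were lower, where 2.91% of all tested genes were called lower. The median log2 fold change of the 31 genes, Col1a1+/- over wild type, was 0.13, and that of all tested genes was -0.01. In 16 of the 31 genes the genotypes did not overlap, 11 with Col1a1+/- above and 5 below, against 28.6% of all tested genes (14% above and 14.5% below). DESeq2 called 5 higher and 3 lower, adding Lamc3, Nid2, Ntn4 and Smoc1, with 4.72% and 8.78% of the genes it tested called in those directions. Scaling by library totals in place of TMM gave 4 higher and 3 lower, with 588 and 739 of all 18514 genes called in those directions. Scaling on the osteocyte markers gave 0 higher and 3 lower, with 2 and 2150 of all 18514 genes called. The osteocyte scaling moved the median of all genes to -0.77 and that of the members to -0.59. No member was called by edgeR without Col1a1+/- replicate 1, wild-type replicate 2 or wild-type replicate 3, where 10, 7 and 6 were higher and 3, 3 and 3 lower at an unadjusted p under 0.05. Over all genes, 3275 of 19063, 3783 of 19139 and 3239 of 19123 had such a p in these fits, both directions together. Frem1 was not called without Col1a1+/- replicate 2, and neither Frem1 nor Frem2 without Col1a1+/- replicate 3.

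**Figure D1:**
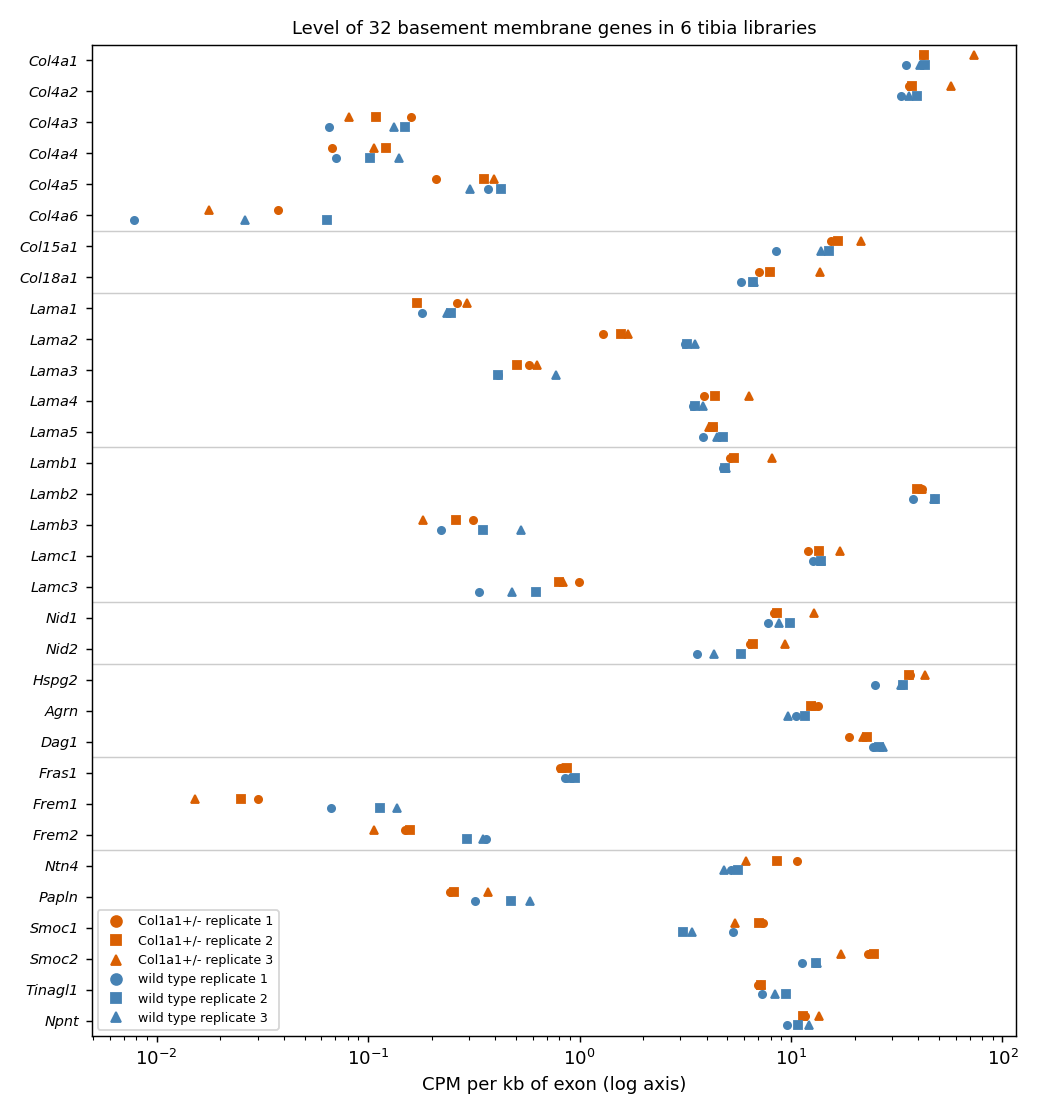
Level of each of the 32 genes in each library, as CPM per kb of exon on a log axis, with Col1a1+/- libraries in orange, wild-type libraries in blue and 1 marker shape per replicate number; lines part the functional groups. Col4a1, Lamb2 and Col4a2 lie highest, Col4a6 lies lowest and its 0 in Col1a1+/- replicate 2 is not drawn, and Lama2, Frem1 and Frem2 show wild-type points to the right of all Col1a1+/- points.

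Collagen IV is the network collagen of basement membranes, and its 6 chain genes stand in 3 head-to-head pairs. Col4a1 and Col4a2, which encode the chains of the trimer found in nearly every basement membrane, lie on chromosome 8 of GRCm39, with start sites at 11362826 on the minus strand and 11362805 on the plus strand in the deposited annotation. Their transcribed parts thus overlap by 22 bp. Col4a4 and Col4a3 on chromosome 1 start 71 bp apart and Col4a6 and Col4a5 on chromosome X 1308 bp apart. The promoter windows of Col4a1 and Col4a2 are shown because the pair shares 1 start region and was close in level in every library. Each runs from 250 bases before to 50 after a RefSeq start on GRCm38.p6, read 5′ to 3′ on the gene's strand, with Col4a1 at chr8:11312777-11313076 (minus) and Col4a2 at chr8:11312555-11312854 (plus). Capitals mark the CCAAT box (CCAAT) and the GC box (GGGCGG), searched on both strands, as was the TATA box (TATAAA).
Col4a1: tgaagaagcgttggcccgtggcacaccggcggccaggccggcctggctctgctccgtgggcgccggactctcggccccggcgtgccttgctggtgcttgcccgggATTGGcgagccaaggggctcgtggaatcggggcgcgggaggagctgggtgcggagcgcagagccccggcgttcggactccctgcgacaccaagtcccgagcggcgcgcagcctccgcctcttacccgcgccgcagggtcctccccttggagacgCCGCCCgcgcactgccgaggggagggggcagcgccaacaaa
Col4a2: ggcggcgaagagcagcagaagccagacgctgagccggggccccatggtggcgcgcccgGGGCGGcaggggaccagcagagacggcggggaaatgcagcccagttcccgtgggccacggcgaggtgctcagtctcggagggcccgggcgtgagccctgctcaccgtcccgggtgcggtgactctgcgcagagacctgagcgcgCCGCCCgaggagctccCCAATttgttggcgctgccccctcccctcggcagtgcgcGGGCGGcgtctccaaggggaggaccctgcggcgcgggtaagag
The Col4a1 window held 1 CCAAT box and 1 GC box, the Col4a2 window 1 CCAAT box and 3 GC boxes, and neither held a TATA box. The windows overlap, and the GC box of Col4a1 is the last GC box of Col4a2 read on the other strand. This shared box lies after the start in each window. The CCAAT box was in 37.4% of the 32851 such windows that RefSeq gave, the GC box in 35.7% and the TATA box in 13.6%. Windows were found for 22 of the 32 genes, of which 10 held a CCAAT box, 16 a GC box and 0 a TATA box in at least 1 window. Some of these genes had more than 1 window, so counts by gene are not directly comparable with the shares of single windows.

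Col4a1 stood at 314, 319 and 548 CPM in Col1a1+/- replicates 1, 2 and 3 and at 261, 320 and 303 CPM in wild-type libraries. Replicate 3 of Col1a1+/- was the highest library, and the other Col1a1+/- libraries lay within or near the wild-type range. The log2 fold change was 0.42 (95% interval -0.09 to 0.92, adjusted p = 0.306 by edgeR), and 0.13 without that library. Col4a2 stood at 239, 247 and 378 CPM against 218, 261 and 239 CPM, with the same library highest and a log2 fold change of 0.26 (95% interval -0.15 to 0.68, adjusted p = 0.445 by edgeR), or 0.04 without it. The ratio of Col4a2 to Col4a1 reads, which no scaling of libraries touches, was 0.761, 0.775 and 0.69 in Col1a1+/- against 0.836, 0.818 and 0.791 in wild-type libraries. All 3 Col1a1+/- ratios were below all 3 wild-type ratios, by a factor of 0.91 (exact two-sided permutation p = 0.1, the smallest that 3 against 3 allows; 0.175 adjusted over the 7 ratios computed).

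The other collagen IV chains, which replace the common pair in kidney glomeruli, lung, eye, smooth muscle and skin, were scarce. Per kb of exon, Col4a1 averaged 46.1 and Col4a2 39.9 CPM over the 6 libraries, whereas Col4a5 averaged 0.343, Col4a3 0.116, Col4a4 0.101 and Col4a6 0.0255. Col4a5 had 47, 68 and 75 reads in Col1a1+/- against 80, 79 and 59 in wild-type libraries, with overlapping genotypes and a log2 fold change of -0.20 (95% interval -0.90 to 0.50). Col4a3 and Col4a4 had 21 to 53 reads per library, and their intervals, -0.94 to 0.99 and -0.99 to 0.83, are too wide to show a difference below about that size at this depth. Col4a6, the gene left untested, had 10, 0 and 4 reads in Col1a1+/- against 2, 14 and 6 in wild-type libraries. The 0 allows a level of up to 0.105 CPM if the 3 reads of that bound are independent. Mates were counted as separate reads, so the true bound is higher, and it covers counting error only. None of the 5 tested chains was called by edgeR, DESeq2 or limma-voom, and 0 had an unadjusted p under 0.05 by edgeR.

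Collagens XV and XVIII carry chondroitin or heparan sulfate and end in domains released as restin and endostatin, fragments known to restrain vessel growth. Col15a1 stood at 98.4, 106 and 136 CPM in Col1a1+/- against 54.1, 96.2 and 88 CPM in wild-type libraries. Its groups did not overlap, but the highest wild-type library was close to the lowest Col1a1+/- library (log2 fold change 0.52, standard error 0.22, adjusted p = 0.219 by edgeR). Col18a1 stood at 49.4, 55.9 and 96.7 CPM against 40.9, 46.3 and 47.1 CPM. Here too Col1a1+/- replicate 3 was highest by far, and the log2 fold change of 0.59 (standard error 0.24, adjusted p = 0.206 by edgeR) was 0.26 without it. The Col18a1 to Col15a1 ratio lay between 0.482 and 0.755 in all libraries, with no difference beyond the spread (exact permutation p = 0.9).

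Laminin alpha chains carry the domains that bind cell receptors and give each laminin its tissue range. Lama2 encodes the alpha 2 chain, the main alpha chain of muscle fibre and Schwann cell basement membranes, whose loss causes a congenital muscular dystrophy. The gene (ENSMUSG00000019899) lies on chromosome 10 at 26856032 to 27495754 on the minus strand of GRCm39, with 16605 bp of exon, of which 3.8% is shared with a gene on the opposite strand. Lama2 stood at 21.4, 26.1 and 28.0 CPM in Col1a1+/- against 52.4, 53.4 and 58.0 CPM in wild-type libraries. Every Col1a1+/- library was below every wild-type library, and the gap between the groups was wider than the range within either. Lama2 fell by 1.12 on the log2 scale (standard error 0.12, 2.17-fold lower, adjusted p = 0.0192 by edgeR). Its promoter window (GRCm38.p6, chr10:27616893-27617192, minus strand) is shown as that of the member with the smallest p.
Lama2: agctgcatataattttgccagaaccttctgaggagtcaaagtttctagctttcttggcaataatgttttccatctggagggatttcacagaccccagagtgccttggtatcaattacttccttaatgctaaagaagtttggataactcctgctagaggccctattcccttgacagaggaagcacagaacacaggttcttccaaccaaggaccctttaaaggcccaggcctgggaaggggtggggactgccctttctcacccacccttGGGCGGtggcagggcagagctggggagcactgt
It held 1 GC box, in capitals, and no CCAAT or TATA box.

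The other alpha chain genes were not called. Lama4, whose product is the alpha chain of endothelial, adipocyte and muscle membranes, stood at 46.9, 52.7 and 76.7 CPM in Col1a1+/- against 41.5, 42.2 and 46.4 CPM in wild-type libraries. The groups met almost edge to edge, with Col1a1+/- replicate 3 highest (log2 fold change 0.44, standard error 0.17, adjusted p = 0.178 by edgeR; 0.22 without that library). Lama5, the alpha chain of mature endothelium and most epithelia, stood at 48.5, 48.6 and 46.4 CPM against 43.8, 54.0 and 50.9 CPM, with a log2 fold change of -0.05 and a 95% interval of -0.29 to 0.19. Lama1, an early embryonic chain, and Lama3, an epithelial chain, were at 1.64 to 2.82 and 4.40 to 8.31 CPM, with overlapping genotypes.

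The ratio of Lama2 to Lama4 reads set the genotypes apart most. It was 0.456, 0.495 and 0.365 in Col1a1+/- against 1.26, 1.27 and 1.25 in wild-type libraries. The 3 wild-type ratios were nearly equal. The geometric mean of the Col1a1+/- ratios was 0.345 times that of the wild-type ratios. The exact two-sided permutation p was 0.1, the smallest possible, or 0.175 adjusted over 7 ratios. The Lama5 to Lama4 ratio was also lower, at 1.03, 0.922 and 0.605 against 1.06, 1.28 and 1.10, with only a narrow gap between groups (p = 0.1 by the same exact test). Per kb of exon, Lama2 made up 13.3% ± 1.01 of alpha chain RNA in Col1a1+/- against 27.5% ± 1.04 in wild-type libraries (SD, n = 3 each). Lama4 made up 42.2% ± 5.75 against 30.0% ± 1.16 and Lama5 37.3% ± 5.36 against 36.3% ± 2.46. The summed alpha chain level was 10.3 to 13.0 CPM per kb in Col1a1+/- against 11.0 to 12.8 in wild type, so the genotypes overlapped in the sum, and the Lama2 shares within it did not overlap.

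**Figure D2:**
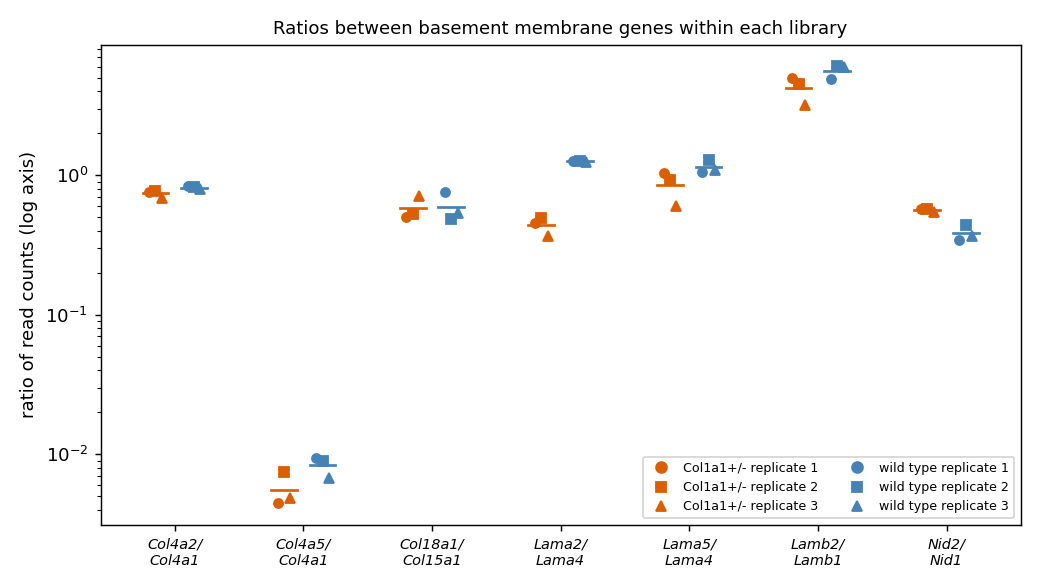
Ratios of the read counts of gene pairs within each library, on a log axis; orange points are Col1a1+/- libraries, blue points wild-type libraries, and short lines their means. The Lama2 to Lama4 points are far apart by genotype (0.365 to 0.495 against 1.25 to 1.27), whereas the Col18a1 to Col15a1 points mix.

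Beta and gamma chains complete the laminin trimer, and none of their genes was called by edgeR. Lamb2, the beta chain of muscle, nerve and mature vessel membranes, was after Col4a1 the most abundant of the 32 genes per kb (42.6 CPM per kb). It stood at 253, 239 and 254 CPM in Col1a1+/- against 229, 290 and 289 CPM, with a log2 fold change of -0.11 and a 95% interval of -0.40 to 0.17. Lamb1, the beta chain of most other tissues, stood at 51.0, 53.1 and 80.2 CPM against 47.1, 48.3 and 48.7 CPM. The groups did not overlap, but its log2 fold change of 0.35 (adjusted p = 0.252 by edgeR) was 0.14 without Col1a1+/- replicate 3. The Lamb2 to Lamb1 ratio overlapped between genotypes (3.17 to 4.95 against 4.87 to 6.01; exact permutation p = 0.2). Lamc1, the gamma chain of nearly all laminins, stood at 99.8, 112 and 141 CPM against 105, 115 and 115 CPM (log2 fold change 0.08, 95% interval -0.23 to 0.39; -0.05 without Col1a1+/- replicate 3). Lamb3, an epithelial chain, had 34 to 69 reads in Col1a1+/- and 47 to 101 in wild type.

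Lamc3, a gamma chain known from brain, retina and nerve, was low but higher in every Col1a1+/- library. It stood at 6.02, 4.86 and 5.08 CPM in Col1a1+/- against 2.05, 3.77 and 2.91 CPM, from 139 to 201 and 66 to 104 reads. The log2 fold change was 0.88 (standard error 0.26), with an adjusted p of 0.0873 by edgeR, 0.0180 by DESeq2 and 0.0723 by limma-voom. Of the 5 beta and gamma chain genes edgeR called 0 and DESeq2 called 1, with 1 at an unadjusted p under 0.05 by edgeR. Over all genes, DESeq2 called 4.72% of those it tested higher, and 4228 of 18514 had an unadjusted p under 0.05 by edgeR.

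Nidogens bridge the laminin and collagen IV networks. Nid1 overlapped between genotypes, at 57.8, 59.5 and 88.8 CPM in Col1a1+/- against 53.7, 68.4 and 61.1 CPM (log2 fold change 0.17, 95% interval -0.23 to 0.57; -0.03 without Col1a1+/- replicate 3). Nid2, its partly redundant relative, stood at 33.2, 34.3 and 48.5 CPM against 18.6, 30.1 and 22.2 CPM, with no overlap. Its log2 fold change was 0.71 (standard error 0.21), with an adjusted p of 0.0902 by edgeR and 0.0181 by DESeq2. Of Nid2 exon 8.45% is shared with Rtraf on the opposite strand, and reads lying over both genes were not counted for either. The Nid2 to Nid1 ratio was 0.574, 0.576 and 0.546 in Col1a1+/- against 0.345, 0.44 and 0.364 in wild-type libraries. Col1a1+/- libraries were 1.48-fold higher in it and did not overlap wild type (exact two-sided permutation p = 0.1; 0.175 adjusted over 7 ratios).

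Perlecan and agrin are heparan sulfate proteoglycans that link laminin to growth factors and receptors, and dystroglycan is the receptor that ties laminin to the cytoskeleton. Hspg2 (perlecan) stood at 539, 535 and 631 CPM in Col1a1+/- against 368, 501 and 490 CPM in wild-type libraries. All Col1a1+/- libraries were above all wild-type libraries, with a log2 fold change of 0.33 (standard error 0.16, adjusted p = 0.26 by edgeR). Agrn (agrin), known best for clustering acetylcholine receptors at the neuromuscular junction, stood at 124, 115 and 120 CPM against 97.7, 108 and 89.8 CPM, again with no overlap (log2 fold change 0.29, standard error 0.11, adjusted p = 0.146 by edgeR). Dag1 (dystroglycan) lay the other way, at 120, 145 and 139 CPM against 155, 165 and 174 CPM, a log2 fold change of -0.29 (standard error 0.11, adjusted p = 0.168 by edgeR). None of these 3 genes was called by edgeR, DESeq2 or limma-voom, and 1 in each direction had an unadjusted p under 0.05 by edgeR. Over all genes 4228 of 18514 had such a p.

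**Figure D3:**
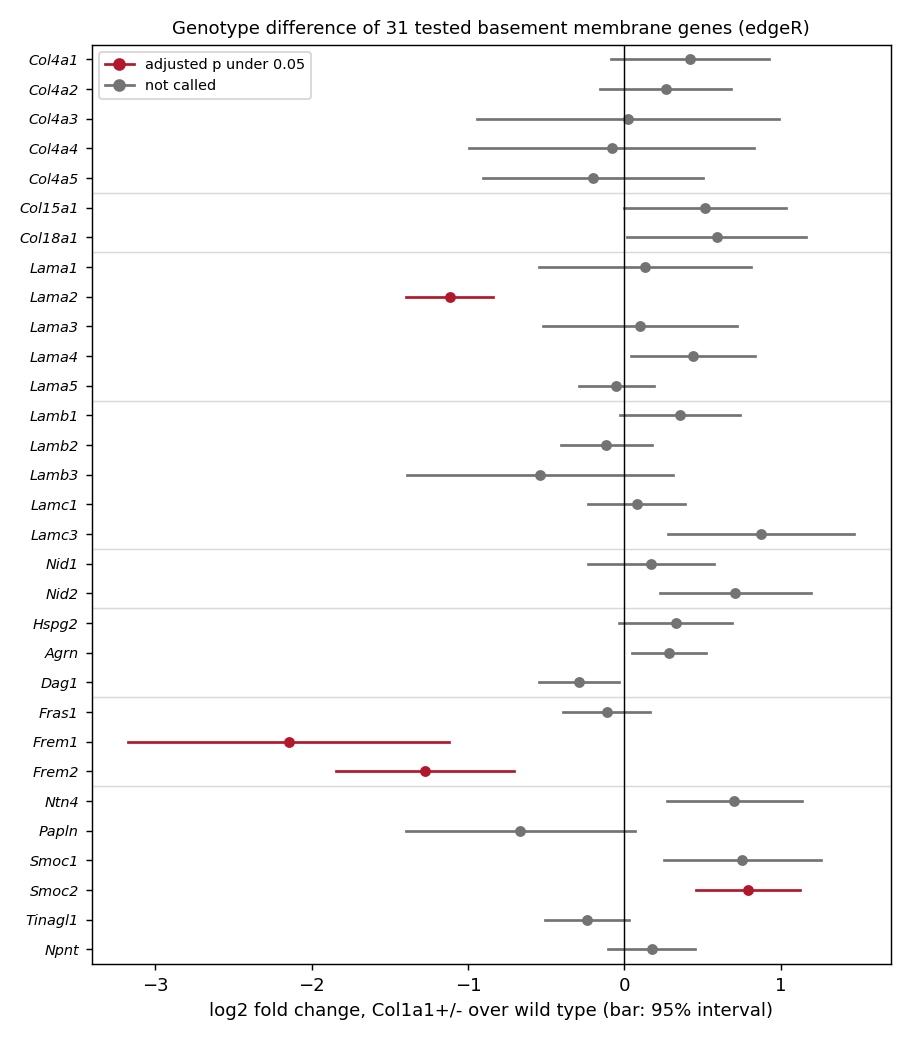
Log2 fold change of each tested gene, Col1a1+/- over wild type, with its 95% interval from the edgeR fit; red marks the 4 genes with an adjusted p under 0.05. Lama2, Frem1 and Frem2 lie left of 0 at -1.12, -2.15 and -1.28, Smoc2 lies right at 0.79, and the widest intervals are those of Frem1, Col4a3, Col4a4 and Lamb3, which had 101 reads or fewer in every library.

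FRAS1, FREM1 and FREM2 form a complex that anchors epithelial basement membranes to the dermis beneath, and loss of any of them causes skin blistering in mouse embryos. Frem2 (ENSMUSG00000037016; chromosome 3, 53421359 to 53564776, GRCm39, minus strand) stood at 1.98, 2.10 and 1.41 CPM in Col1a1+/- against 4.80, 3.88 and 4.64 CPM in wild-type libraries, from 40 to 66 and 107 to 155 reads. The genotypes were well apart, and Frem2 fell by 1.28 on the log2 scale (standard error 0.25, 2.42-fold lower, adjusted p = 0.0336 by edgeR). Frem1 (ENSMUSG00000059049; chromosome 4, 82816157 to 82970576, GRCm39, minus strand) had only 14, 10 and 6 reads in Col1a1+/- against 30, 44 and 55 in wild-type libraries, or 0.21 to 0.42 against 0.93 to 1.91 CPM. Frem1 fell by 2.15 on the log2 scale (standard error 0.45, 4.43-fold lower, adjusted p = 0.0400 by edgeR), with a 95% interval of -3.18 to -1.12. The adjusted p of Frem1 was 0.0511 by limma-voom and 0.0537 by edgeR with the mean endothelial marker level as a covariate, which both miss the threshold. Fras1 was more abundant and did not differ beyond the spread, at 14.2, 15.4 and 14.6 CPM against 15.1, 16.9 and 15.9 CPM (log2 fold change -0.11, 95% interval -0.39 to 0.16). The Frem2 promoter window (GRCm38.p6, chr3:53657306-53657605, minus strand) is shown beside that of Lama2 as another lower member with 1 RefSeq start.
Frem2: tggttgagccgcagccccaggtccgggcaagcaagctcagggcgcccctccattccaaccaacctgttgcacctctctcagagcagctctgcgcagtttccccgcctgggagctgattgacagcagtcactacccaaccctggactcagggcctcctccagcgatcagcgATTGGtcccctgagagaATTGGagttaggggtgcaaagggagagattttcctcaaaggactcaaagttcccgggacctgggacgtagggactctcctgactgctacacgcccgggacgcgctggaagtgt
It held 2 CCAAT boxes, both read on the opposite strand as ATTGG and set in capitals, and no GC or TATA box, so the Lama2 and Frem2 windows had none of these motifs in common.

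The remaining members are secreted proteins found in or near the sheet. SMOC1 and SMOC2 are relatives of osteonectin that bind calcium and matrix, and SMOC1 is known as an antagonist of BMP signals in limb development. Smoc2 (ENSMUSG00000023886; chromosome 17, 14499768 to 14625052, GRCm39, plus strand) stood at 161, 171 and 120 CPM in Col1a1+/- against 78.0, 91.1 and 91.9 CPM in wild-type libraries. All Col1a1+/- libraries were above all wild-type libraries, replicate 3 being the nearest, and Smoc2 rose 1.73-fold (log2 fold change 0.79, standard error 0.15, adjusted p = 0.0311 by edgeR). On the scale of osteocyte markers its log2 fold change was 0.08 (adjusted p = 0.870), where all genes had a median of -0.77. Smoc1 stood at 25.7, 24.8 and 19.0 CPM against 18.6, 10.7 and 11.9 CPM. Its groups nearly touched, and the log2 fold change of 0.75 had an adjusted p of 0.0844 by edgeR and 0.0230 by DESeq2.

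Ntn4 encodes netrin 4, a laminin-related protein that binds gamma chains and disrupts laminin networks. It stood at 39.9, 32.3 and 22.9 CPM in Col1a1+/- against 19.4, 21.0 and 17.9 CPM in wild-type libraries, with a log2 fold change of 0.70 and an adjusted p of 0.0683 by edgeR and 0.0143 by DESeq2. Npnt (nephronectin, a ligand of integrin alpha 8 beta 1) overlapped between genotypes at 57.2 to 68.2 against 47.9 to 60.9 CPM. Tinagl1, a cathepsin-like matrix protein, stood at 30.3 to 31.4 CPM in Col1a1+/- against 31.7 to 41.3 CPM, just without overlap (log2 fold change -0.24, adjusted p = 0.269 by edgeR). Papln (papilin) had 41 to 95 reads per library and overlapping genotypes, with a log2 fold change of -0.67 (95% interval -1.40 to 0.07).

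Among the Col1a1+/- libraries the members fell into opposite orders. Replicate 3 was the highest of all 6 libraries for 12 of the 31 tested genes: Col4a1, Col4a2, Col15a1, Col18a1, Lama1, Lama4, Lamb1, Lamc1, Nid1, Nid2, Hspg2 and Npnt. In Col4a3, Lama5, Lamb3, Frem1, Frem2, Ntn4, Smoc1 and Smoc2 the same library was instead the lowest Col1a1+/- library. Replicate 3 also had the most osteocyte marker RNA (0.136% of counts against 0.0847% in each of the others), the least chondrocyte marker RNA of the Col1a1+/- group (0.292% against 0.417% and 0.44%) and the most endothelial marker RNA (0.0905% against 0.0743% and 0.0809%). The part of these differences in the members' order was not tested.

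Marker lists of other cells are given beside the 4 called members. Medians below 0 on the log2 scale were also those of neutrophil (-1.27), tendon (-0.51), megakaryocyte (-0.45), B cell (-0.37) and mural cell (-0.11) markers. Osteocyte (0.54), macrophage (0.29), adipocyte (0.09) and erythroid (0.05) markers had medians above 0. In these lists edgeR called only 1 mural cell gene in each direction. The part of these cells in the members' differences was not tested. All 12 skeletal muscle markers were tested and 5 were called lower (2.91% of all tested genes were), the median being -1.49 on the log2 scale. Together they took 1.87% ± 0.741 of counts in Col1a1+/- against 4.74% ± 0.588 in wild type (SD, n = 3 each). Lama2, Frem1 and Frem2 were lower in the same libraries. Within Col1a1+/-, replicate 2 had the most muscle RNA (2.73% against 1.49% and 1.41%), Frem2 was also highest in replicate 2, Lama2 in replicate 3 and Frem1 in replicate 1. The part of muscle RNA in the order of these libraries was not tested. With the mean muscle marker level as a covariate the log2 fold changes were -1.05 for Lama2, -1.06 for Frem1, -0.93 for Frem2 and 1.31 for Smoc2. None was then called by edgeR (adjusted p = 0.681, 0.836, 0.724 and 0.628). Nor was any other gene called, and 1349 genes had an unadjusted p under 0.05 by edgeR. The mean muscle marker level, in log2 CPM, was 9.13, 10.1 and 8.79 in Col1a1+/- against 10.6, 11.0 and 11.3 in wild type. It did not overlap between genotypes, so this fit can hardly part muscle from genotype. The Schwann cell markers, cells that also make Lama2, had 0 of 8 called by edgeR and a median of -0.04, with 1 higher by DESeq2 and 1 at an unadjusted p under 0.05. Over all genes, DESeq2 called 4.72% of those it tested higher, and 4228 of 18514 had an unadjusted p under 0.05 by edgeR without a covariate. The Schwann cell markers took 0.00966% to 0.0113% of counts in Col1a1+/- and 0.00879% to 0.0101% in wild type.

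Chondrocyte marker RNA took a larger share of counts in every Col1a1+/- library, in which Smoc2 was higher too. Of 7 markers, none at 0 in any library, 3 were called higher (1.43% of all tested genes were), and the list took 0.292% to 0.44% of counts against 0.123% to 0.193%. Osteoblast markers were higher as well, with 5 of 7 called higher against the same 1.43% and 0.957% to 1.09% of counts against 0.45% to 0.531%. Their part in the Smoc2 difference was not tested. Endothelial markers, the cells that line the vessels of bone, were not called: 0 of 10 passed by edgeR, DESeq2 or limma-voom, 0 had an unadjusted p under 0.05, and the median log2 fold change was 0.03. Scaled on these markers, the log2 fold changes of Lama2, Frem1, Frem2 and Smoc2 were -1.16, -2.15, -1.31 and 0.77, all called by edgeR.

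**Figure D4:**
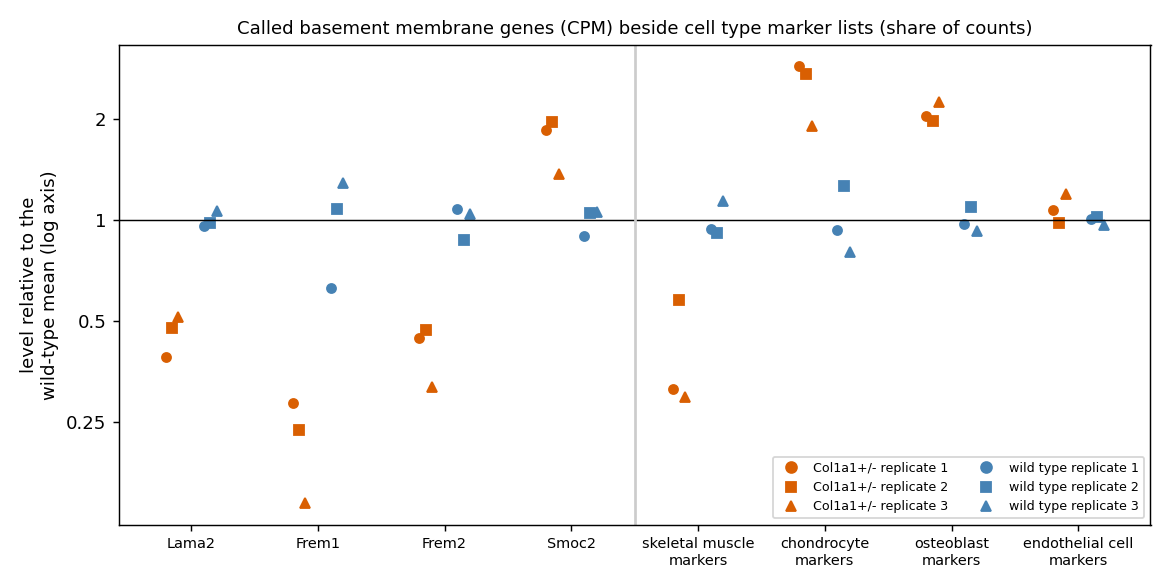
The 4 called genes (CPM) and the summed share of counts of 4 marker lists in each library, each divided by its wild-type mean, on a log axis; orange points are Col1a1+/- and blue points wild-type libraries. Lama2, Frem1, Frem2 and the skeletal muscle markers lie below 1 in all Col1a1+/- libraries, Smoc2 and the chondrocyte and osteoblast markers lie above 1, and the endothelial markers mix.

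Genes that act with the basement membrane were taken from lists, whose counts of called genes stand beside 2.91% of all tested genes called lower and 1.43% called higher. Among 10 receptors for laminin and collagen IV, Itga7 fell by 1.30 on the log2 scale (adjusted p = 0.0329 by edgeR). It encodes the laminin-binding integrin chain of muscle, and stood at 39.2, 43.5 and 25.6 CPM against 69.3, 88.3 and 108 CPM. Bcam, a receptor for the laminin alpha 5 chain, stood at -0.61 (adjusted p = 0.0706), and the broadly used integrin chains Itgb1 and Itga3 stood at 0.12 and 0.28 without passing. The dystrophin-glycoprotein complex links dystroglycan to actin, and edgeR called 2 of its 11 tested genes lower and 0 higher, with a list median of -0.53. DESeq2 called 4 lower (8.78% of the genes it tested were) and limma-voom 3 (664 of 18514 were). At an unadjusted p under 0.05 by edgeR, 7 were lower and 1 higher, and 4228 of 18514 genes had such a p. Dmd (dystrophin) fell by 1.45 (adjusted p = 0.0255 by edgeR) and Sgcb, a sarcoglycan, fell by 0.73 (adjusted p = 0.0402 by edgeR). Utrn, the non-muscle relative of dystrophin, stood at 0.19 and Sntb2 at 0.31 with adjusted p of 0.297 and 0.108 by edgeR. Several genes of this complex are muscle genes, and the muscle markers were lower in the same libraries. With the muscle covariate the log2 fold changes were -0.36 for Itga7, -0.45 for Dmd and -0.075 for Sgcb, none called by edgeR (adjusted p = 0.789, 0.699 and 0.952). That fit can hardly part muscle from genotype, because muscle marker levels did not overlap between genotypes. With the endothelial covariate Itga7 and Sgcb missed the threshold too (adjusted p = 0.0560 and 0.0583 by edgeR). With 1 library left out, Itga7, Dmd and Sgcb were each called by edgeR in 2 of 6 fits.

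Of 12 tested genes that build the laminin-binding sugar of dystroglycan, 1 was lower and 0 higher, with a median of -0.06. The lower gene was B3galnt2, a glycosyltransferase, at 31.8, 39.3 and 34.1 CPM against 59.6, 54.2 and 55.5 CPM, which fell by 0.69 (standard error 0.11, adjusted p = 0.0239 by edgeR). Pomt2 and Pomk, which act in the same pathway, stood at 0.24 each (adjusted p = 0.249 and 0.248 by edgeR). Among 10 genes for folding and crosslinking collagen IV, which mostly serve other collagens too, all log2 fold changes were above 0 with a median of 0.53. Over all tested genes 9090 of 18514 were above 0. DESeq2 called 5 of the 10 higher, with 4.72% of the genes it tested, and edgeR called 1. Osteoblast markers were higher in the same libraries (5 of 7 called by edgeR), and their part was not tested. P4ha1, a prolyl 4-hydroxylase subunit, rose 1.59-fold (log2 fold change 0.67, adjusted p = 0.0342 by edgeR). P3h2, the prolyl 3-hydroxylase that acts on collagen IV, stood at 0.58 with an adjusted p of 0.050025 by edgeR, just past the threshold of 0.05. On the osteocyte scale P4ha1 turned to -0.07 and P3h2 to -0.17. With 1 library left out, B3galnt2 and P4ha1 were each called by edgeR in 2 of 6 fits.

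Of 9 tested further components, Egflam (pikachurin, a dystroglycan ligand) fell by 1.07 on the log2 scale (adjusted p = 0.0406 by edgeR). With 1 library left out, it was called by edgeR in 2 of 6 fits. Egflam missed the threshold by limma-voom (adjusted p = 0.0512) and with the endothelial covariate (adjusted p = 0.0560 by edgeR), and stood at -0.20 with the muscle covariate (adjusted p = 0.922 by edgeR). Hmcn2, a hemicentin, stood at 8.15, 15.3 and 8.65 CPM against 19.7, 35.8 and 47.3 CPM, a log2 fold change of -1.68 (adjusted p = 0.0550 by edgeR). Hmcn2 was called by DESeq2 (adjusted p = 2.2e-05), limma-voom (adjusted p = 0.0443) and edgeR with library totals (adjusted p = 0.0230) or osteocyte scaling (adjusted p = 3.8e-05), and stood at -0.14 with the muscle covariate (adjusted p = 0.952 by edgeR). As said above, the fit with the muscle covariate can hardly part muscle from genotype. Ntn1 stood at 0.46 (adjusted p = 0.0550 by edgeR) and Vwa1 at 0.39 (adjusted p = 0.181 by edgeR). Of 7 proteases and heparanase genes edgeR and limma-voom called 0 and DESeq2 called 1 higher, with 2 at an unadjusted p under 0.05, and the median was 0.31. Over all genes, DESeq2 called 4.72% of those it tested higher, and 4228 of 18514 had an unadjusted p under 0.05 by edgeR. The gelatinase genes Mmp9 and Mmp2, whose products cut collagen IV, stood at 0.53 and 0.58 (adjusted p = 0.132 and 0.18 by edgeR), and the heparanase gene Hpse at -0.48 (adjusted p = 0.468).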

How the data were processed

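Values deposited by the authors are raw counts of reads for each gene, with 1 table per library. Reads were processed with Trimmomatic 0.39, HISAT2 2.2.1 and SAMtools 1.20, per the submitters' processing notes, and counted by featureCounts 2.0.3 over exons of Ensembl release 107 on GRCm39, per the file headers. As run, it counted each mate as 1 read without regard to strand, and neither multi-mapped reads nor those over more than 1 gene were counted. Symbols came from a GENCODE table by gene identifier (91.8% named). Genes were kept by filterByExpr (18514 genes), scaled by TMM and compared with edgeR 4.0.16 in R 4.3.3 (quasi-likelihood F test, robust, genotype as the only term, Benjamini-Hochberg over all tested genes). Standard errors were derived from the F statistic and 95% intervals from the fit's degrees of freedom. Alternatives used DESeq2 1.42.0, limma-voom 3.58.1, other scalings, covariates and left-out libraries, and the fit was tested on simulated data. Replicates differed by far more than counting noise (chi-square per degree of freedom 25.7 to 87.6). All members are described; of each partner list the 2 genes with the smallest p in each direction are named, except for a gene that is not reported here. The members and lists were chosen with earlier results of these data known. Promoter sequences are RefSeq's, on GRCm38.p6, and no coordinate was converted between builds.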

Additional observations from a re-analysis of the deposited data

How the results depend on the processing

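Calls over all genes (265 higher and 538 lower) and over the members (1 and 3) followed the settings. Higher and lower calls over all genes, then over the members, were 588, 739, 4 and 3 with library totals, 2, 2150, 0 and 3 with osteocyte scaling, 161, 381, 1 and 3 with endothelial scaling, 577, 895, 3 and 3 with no filter, 788, 1468, 5 and 3 by DESeq2, and 0, 0, 0 and 0 with the muscle covariate, where the cause was not tested. With the endothelial covariate the calls were 234, 275, 2 and 2. The muscle covariate did not overlap between genotypes, so its fit can hardly part muscle from genotype. Same-numbered libraries deviated together by r = 0.107, 0.0413 and -0.122, and not every library correlated best with its own number. These values give no sign of pairing by number but cannot exclude it, and the labels state none. A replicate block gave 37 and 89 calls over all genes and 0 and 1 over the members. With 1 library left out, calls over all genes ranged from 0 to 594 higher and 0 to 1172 lower, and over the members from 0 to 2 higher and 0 to 3 lower; 1 library fewer also lowers the degrees of freedom. Lama2, Frem1, Frem2 and Smoc2 kept their direction in all settings run.

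Osteocyte scaling moved the median of all genes to -0.77. The osteocyte markers themselves had log2 fold changes above 0 in 8 of 8 tested, with a median of 0.54 and none called by edgeR. This scaling turned these log2 fold changes negative: Col4a1 -0.37, Col4a2 -0.51, Col4a3 -0.56, Col15a1 -0.18, Col18a1 -0.22, Lama1 -0.59, Lama3 -0.68, Lama4 -0.37, Lamb1 -0.45, Lamc1 -0.70, Nid1 -0.59, Hspg2 -0.40, Agrn -0.46, Smoc1 -0.081, Npnt -0.58, Itga3 -0.47, Itgb1 -0.66, Sntb2 -0.47, Utrn -0.58, Pomk -0.54, Pomt2 -0.53, P4ha1 -0.067, P3h2 -0.17, Ntn1 -0.33, Vwa1 -0.39, Mmp9 -0.21 and Mmp2 -0.10. Library totals turned Col4a4 (0.027) and Lama5 (0.039). The muscle covariate turned Col4a1 -0.12, Col4a2 -0.16, Col4a4 0.79, Lama1 -0.45, Lama5 0.12, Lamb1 -0.090, Lamb3 0.50, Lamc1 -0.076, Nid1 -0.19, Fras1 0.022, Itgb1 -0.030 and Pomt2 -0.024, and the cause was not tested. With 1 library left out, the sign of 9 values changed, none of them called: Col4a3 (-0.25 to 0.25), Col4a4 (-0.27 to 0.19), Col4a5 (-0.36 to 0.045), Lama3 (-0.053 to 0.47), Lama5 (-0.10 to 0.014), Lamc1 (-0.050 to 0.20), Nid1 (-0.034 to 0.30), Hpse (-0.71 to 0.078) and the Col18a1 to Col15a1 log2 ratio (-0.17 to 0.17). The other ratios kept their direction under all alternatives run, the Lama2 to Lama4 log2 ratio between -1.63 and -1.41; sign flips over same-numbered libraries cannot give a p below 0.25. Depth limits Col4a3, Col4a4, Col4a6 and Frem1, which had 55 reads or fewer in every library.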
